A study of Equus caballus with 24 samples.

Results

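The expression of 10 genes of cartilage was followed through the pituitary and the long bone epiphysis of Debao ponies (DPs), a small horse breed, and of Mongolian horses (MHs), a larger breed. Of these 10 genes, 6 encode matrix proteins other than collagens (ACAN, COMP, HAPLN1, MATN1, MATN3 and CHAD) and 4 encode SOX transcription factors (SOX9, SOX5, SOX6 and SOX8). They were picked by their gene names, with earlier results of these data known. The study had already named the 4 SOX genes among those changed in these data. Counts of called genes in this set are therefore not independent of that report. All 10 were found among the 24232 genes with read counts and the 24248 genes with RPKM values, which are scaled to gene length and library size. The pituitary and the epiphysis, which is the end of a long bone, were sampled from female animals at a juvenile stage, under 3 years, and an adult stage, over 3 years. This gave 24 libraries in 8 groups of 3. The long bone groups were DPLBJ and MHLBJ for juveniles and DPLBA and MHLBA for adults, and the pituitary groups were DPPJ, MHPJ, DPPA and MHPA in the same way. By the study's methods both tissues came from the same animals, and RNA was taken from a weighed portion of the ground tissue. No treatment or engineered allele was used in any group.

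Aggrecan (ACAN) is the large proteoglycan that holds water in cartilage through its chondroitin sulfate chains, and the link protein HAPLN1 fastens it to hyaluronan. COMP and the matrilins MATN1 and MATN3 connect collagen fibrils with proteoglycans, while chondroadherin (CHAD) binds collagen and the chondrocyte surface. SOX9 is the factor that cartilage cells need to form and to make this matrix, SOX5 and SOX6 act together with it on cartilage genes, and SOX8 is a close relative of SOX9 that is also made in the oligodendrocyte lineage.

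The libraries held 11433209 to 23573036 reads on genes in the pituitary and 11616518 to 27007342 in the long bone. The tissues were checked with marker lists, each summed as CPM, the reads scaled to library size. The osteoblast list reached 6446 to 83924 CPM in the long bone groups and 75.0 to 2412 CPM in the pituitary groups. The anterior pituitary hormone list (5 genes found) reached at least 11810 CPM in 7 pituitary libraries. It reached 0.139 to 7.73 CPM in the 3 MHPJ libraries, 15.8 in DPPA replicate 1 and 1.04 in MHPA replicate 1, so 5 libraries labelled pituitary held almost no anterior hormone RNA, and TSHB had 0 reads in every MHPJ library. In the long bone, DPLBJ replicates 2 and 3 stood apart by their erythroid lists, at 6719 and 3257 CPM, against 0.446 in DPLBJ replicate 1. In such mixed tissue, fewer cells of a type and less RNA per cell cannot be told apart.

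Pooled over breeds and stages, 5 of the 6 matrix genes, all but MATN1, were higher in the long bone. This did not hold in MHLBJ for HAPLN1, ACAN and MATN3. Mean HAPLN1 was 0.267 RPKM in MHLBJ, against 1.77 in MHPJ, 0.49 in DPPA, 0.357 in MHPA and 0.143 in DPPJ. Mean ACAN was 0.37 RPKM in MHLBJ and 0.51 in MHPJ, and mean MATN3 was 0.767 in MHLBJ and 1.15 in DPPA. In the other long bone groups the means of all 5 genes were above those of every pituitary group. SOX9 had a median of 0.515 RPKM in the long bone and 2.52 RPKM in the pituitary, and SOX8 had medians of 1.735 and 4.46 RPKM. Over all 24 libraries, 7 of the 10 genes were higher in the long bone by the rule for a differentially expressed gene (DEG) used throughout, which asks for P under 0.05 before adjustment in edgeR's quasi-likelihood test and for more than a 2-fold change. Of all 16131 genes tested, 38.9% were DEGs in either direction and 17.4% were higher in the long bone. CHAD had 285 to 32199 reads in every long bone library and 0 to 8 in every pituitary library. It was the only one of the 10 genes whose tissues did not overlap, which was so for 7.52% of all genes. Its log2 fold change was 11.34 ± 0.61 (SE), a value that depends on the prior count because the pituitary was near 0. ACAN was higher by 7.16 ± 0.88 on the log2 scale, COMP by 6.39 ± 0.90, HAPLN1 by 4.57 ± 0.82 and MATN3 by 4.43 ± 0.89. SOX5 was higher by 1.43 ± 0.15 and SOX6 by 1.39 ± 0.41. All 7, and 38.3% of all genes, also passed after Benjamini-Hochberg adjustment, the highest adjusted p (edgeR's quasi-likelihood test) being 0.00684 for SOX6. The change of SOX9 was -0.087 ± 0.71 (adjusted p = 0.927), and its sign turned when any of 8 single libraries was left out. That of SOX8 was -1.68 ± 0.82 (adjusted p = 0.0812), moving to -0.18 without MHPA replicate 1 and to -0.79 without DPPA replicate 1. Leaving out single libraries also moved it down to -2.05. SOX8 became a DEG, lower in the long bone, when any of 7 single libraries was left out. This fit took the tissues as independent although they share animals. With the replicate number as a block within breed and stage, the same 7 genes were DEGs, but MATN3 was 2.65 (adjusted p = 0.0651, edgeR's quasi-likelihood test) and SOX8 0.032. The labels do not say that equal numbers in the tissues are 1 animal. When the 5 pituitary libraries with little hormone RNA were left out, a setting chosen after seeing the data, 8 of 9 genes tested were higher in the long bone, against 20.9% of all genes higher and 40.2% called in either direction. SOX8 had then turned to 2.01 (adjusted p = 0.0263, edgeR's quasi-likelihood test), SOX9 was 0.98 (adjusted p = 0.362) and the other 7 kept their calls. The values are pooled over both breeds, and within the long bone the matrix genes spread far more widely than this contrast shows.

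**Figure D1:**
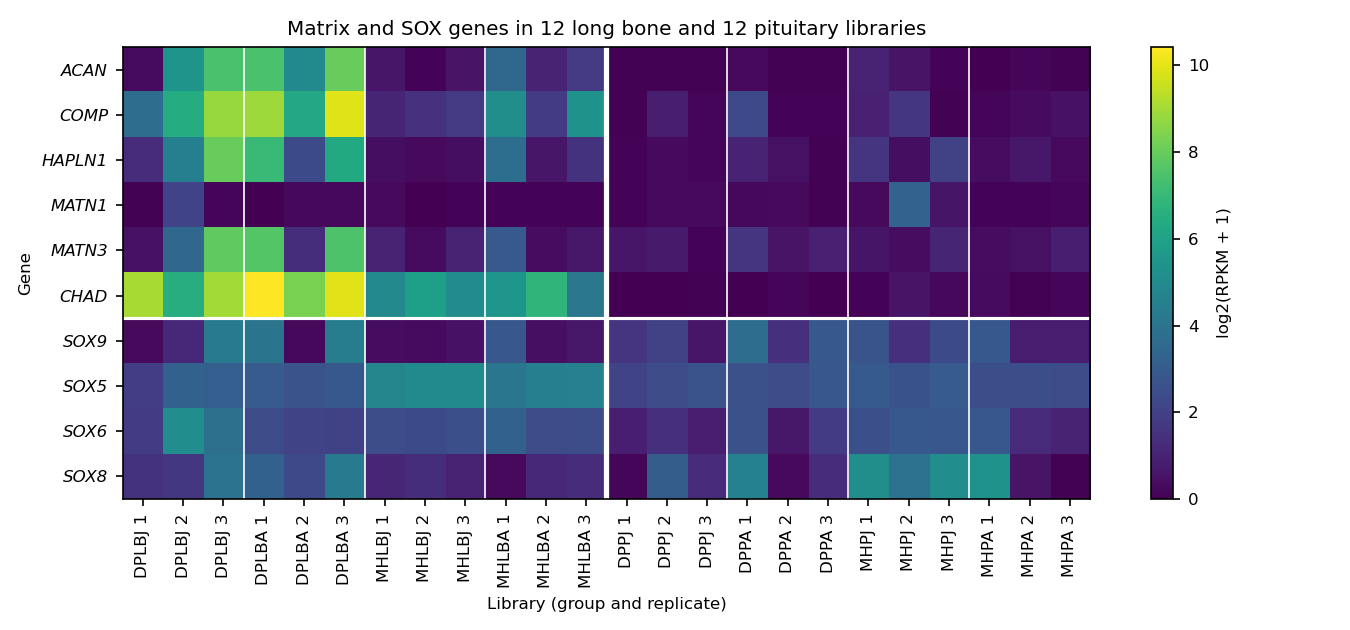
Heat map of log2(RPKM + 1) of the 10 genes (rows, matrix genes above the white line and SOX genes below) in the 24 libraries (columns, long bone on the left, pituitary on the right). The matrix genes were high in most DP long bone libraries, CHAD in all 12 long bone libraries, and MATN1 above 1 RPKM only in DPLBJ replicate 2 and MHPJ replicate 2.

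Per gene length, CHAD and COMP led the matrix genes in the long bone. CHAD ranged from 16.5 to 1369 RPKM with a median of 100 over the 12 libraries. COMP ranged from 1.11 to 949 RPKM with a median of 36.9. ACAN spanned 0.07 to 252 RPKM, HAPLN1 0.19 to 257 RPKM and MATN3 0.23 to 235 RPKM. Thus the lowest and highest libraries of MATN3 lay 1024-fold apart, those of HAPLN1 1353-fold and those of ACAN 3600-fold, against 82.9-fold for CHAD. MATN1 was hardly found. It had 99 reads (3.22 RPKM) in DPLBJ replicate 2, 209 reads (8.69 RPKM) in MHPJ replicate 2 and 0 to 17 reads in the other 22 libraries.

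The first comparison asked how the breeds differed at the juvenile stage in the long bone. All 9 genes that could be tested were DEGs, 8 higher and 1, SOX5, lower in DPs. Among all 13755 genes tested, 13.8% were DEGs, 8.33% higher and 5.47% lower in DPs. Without TMM scaling, 42.5% of all DEGs were higher in DPs, against 60.3% with it, and the direction of all 9 genes was kept. MATN1 did not pass the filter on low counts, and HAPLN1 passed it only through DPLBJ, the group where it was high. The genes that passed had a median log2 fold change of 6.78 in the matrix group (5 genes) and 2.23 in the SOX group (4 genes), and that of all genes tested was 0.053. After adjustment over all genes, none of the 9 and no other gene passed at 0.05 (adjusted p = 0.136 to 0.245 for the 9, edgeR's quasi-likelihood test). Before adjustment DESeq2 also called 9 of the 9, and limma on log2(RPKM + 1) called 5. Without DPLBJ replicates 2 and 3, the libraries with high erythroid lists, 4 genes were called from DPLBJ replicate 1 alone, which was assumed to vary like MHLBJ, against 12.4% of all genes. These were COMP (2.97), HAPLN1 (2.64), CHAD (3.93) and SOX5 (-3.21), while ACAN was -0.53, MATN3 -0.62, SOX9 -0.43 and SOX6 -0.58, with the opposite sign. This setting was also chosen after seeing the data.

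COMP had 12.3, 87.4 and 446 RPKM in the 3 DPLBJ replicates and 1.11, 1.79 and 2.43 RPKM in MHLBJ. Each DP library was thus above each MH library, although the DP libraries themselves lay far apart. The log2 fold change was 6.73 ± 1.28. CHAD had 535, 87.9 and 501 RPKM in DPLBJ and 29.3, 57.6 and 31.3 RPKM in MHLBJ. Its groups did not overlap either, and the fold change of 3.35 ± 0.68 on the log2 scale was the smallest of the matrix genes. CHAD was also the only matrix gene that was high in DPLBJ replicate 1. HAPLN1 had 1.47, 21.7 and 257 RPKM in DPLBJ and 0.32, 0.19 and 0.29 RPKM in MHLBJ, where it had 8, 8 and 11 reads. HAPLN1 changed most, by 8.48 ± 1.86, but the size of this change rests on these few MH reads.

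ACAN had 0.22, 41.5 and 173 RPKM in DPLBJ and 0.56, 0.07 and 0.48 RPKM in MHLBJ. DPLBJ replicate 1, with 26 ACAN reads, lay among the MH libraries, whereas the other DP libraries had 5618 and 26058 reads. The log2 fold change was 7.67 ± 2.05. In MATN3 too DPLBJ replicate 1 lay within the MH range, with 0.43, 10.2 and 235 RPKM in DPLBJ and 0.99, 0.23 and 1.08 RPKM in MHLBJ (6.78 ± 2.04, and 3.09 without DPLBJ replicate 3). SOX9 had 0.21, 1.23 and 19.3 RPKM in DPLBJ and 0.28, 0.24 and 0.43 RPKM in MHLBJ. It was therefore high in a single library, and without DPLBJ replicate 3 its log2 fold change fell from 4.45 ± 1.46 to 1.44 and was no longer that of a DEG.

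SOX5 ran the other way. It had 2.70, 8.53 and 7.68 RPKM in DPLBJ and 25.7, 30.0 and 29.5 RPKM in MHLBJ, so that every MH library was above every DP library, and it was lower in DPs by a log2 fold change of -2.02 ± 0.44. SOX6, the partner of SOX5, had 2.63, 33.2 and 13.2 RPKM in DPLBJ and 4.54, 4.07 and 4.77 RPKM in MHLBJ. SOX6 was higher in DPs by 2.08 ± 0.80 but by 0.87 without DPLBJ replicate 2, where it was no DEG. SOX6 is also known as a factor of red cell precursors, and DPLBJ replicate 2 had the highest erythroid list of all libraries. The part of these cells in the SOX6 difference was not tested. SOX8 had 1.90, 2.26 and 14.6 RPKM in DPLBJ and 1.16, 1.57 and 0.98 RPKM in MHLBJ. The change of SOX8, 2.38 ± 0.81, was 0.98 without DPLBJ replicate 3 and then no DEG. In all, COMP, HAPLN1, CHAD, SOX5 and SOX8 did not overlap between the breeds, against 21.7% of all genes tested. The DEG calls of SOX9, SOX6 and SOX8 were also lost when single MHLBJ libraries were left out (SOX9 and SOX6 without replicate 1 or 2, SOX8 without replicate 1 or 3, SOX6 without replicate 3).

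**Figure D2:**
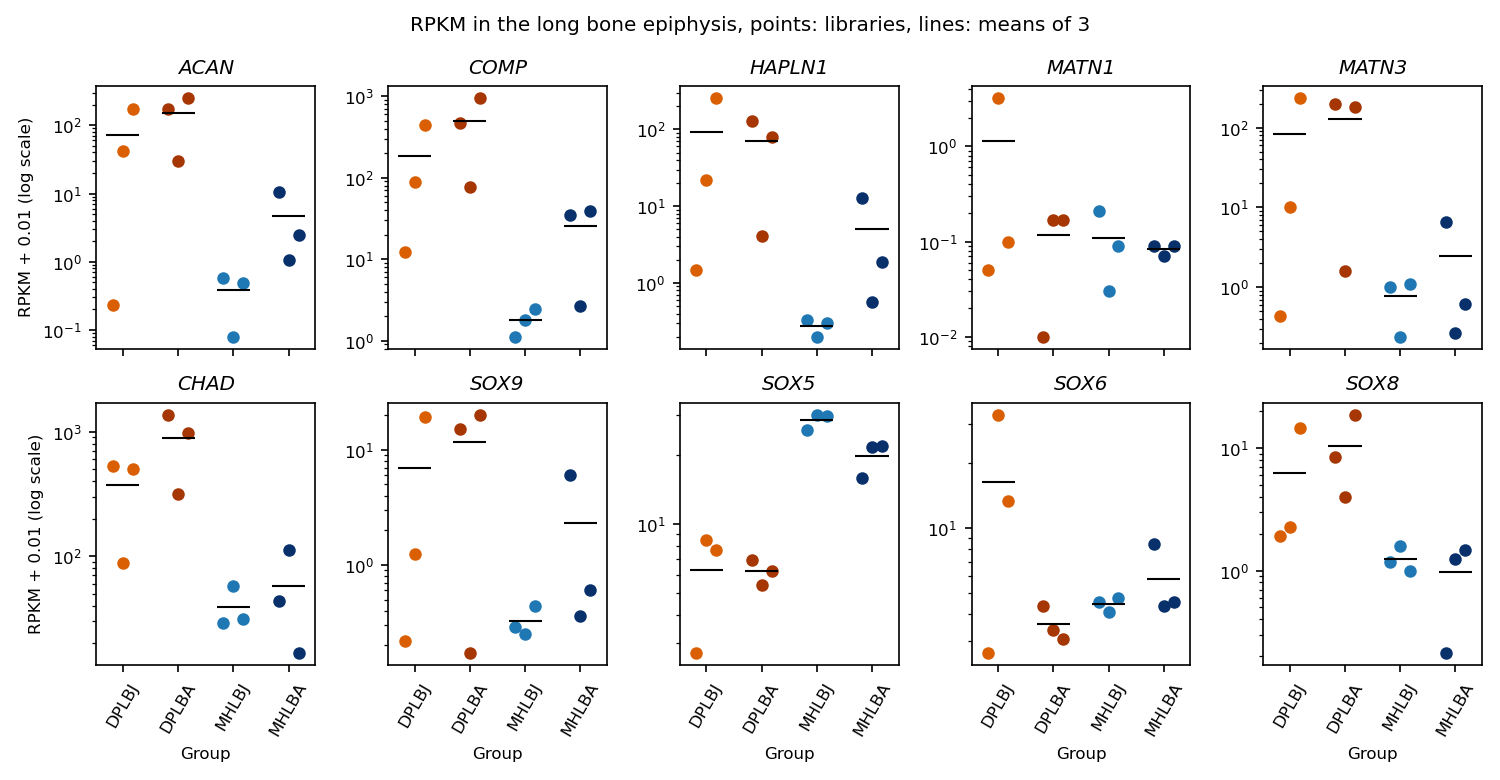
RPKM + 0.01 on log axes (scaled separately for each gene) of the 10 genes in the 4 long bone groups; points are libraries and lines are means of 3. The 3 DPLBJ points lie apart in ACAN (0.22, 41.5 and 173 RPKM), while the MHLBJ points of SOX5 lie together at 25.7 to 30.0 RPKM.

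In the adult long bone, 6 of the 9 genes tested were DEGs between the breeds, of which 5 were higher in DPs (ACAN, COMP, MATN3, CHAD and SOX8) and SOX5 was again lower. Of all 14073 genes tested, 18.3% were DEGs, 10.3% higher and 8.03% lower in DPs. The median log2 fold change was 3.99 over the 5 matrix genes tested and 0.37 over the 4 SOX genes, against -0.035 over all genes. After adjustment SOX5 alone passed (adjusted p = 0.0231, edgeR's quasi-likelihood test), with 2.24% of all genes.

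ACAN had 173, 30.1 and 252 RPKM in DPLBA and 10.4, 1.07 and 2.42 RPKM in MHLBA, with no overlap. Its log2 fold change was 4.50 ± 1.24 (adjusted p = 0.0909). COMP had 469, 77.0 and 949 RPKM in DPLBA and 34.5, 2.62 and 39.2 RPKM in MHLBA (3.99 ± 1.22, adjusted p = 0.110). CHAD, with 1369, 318 and 985 RPKM in DPLBA and 43.5, 113 and 16.5 RPKM in MHLBA, was higher by 3.80 ± 0.82 (adjusted p = 0.0571). In each of these genes the lowest DP library was above the highest MH library. DPLBA replicate 2 was the lowest DPLBA library in all 3.

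MATN3 and HAPLN1 overlapped between the breeds in adults. MATN3 had 197, 1.58 and 182 RPKM in DPLBA and 6.52, 0.26 and 0.60 RPKM in MHLBA. Its log2 fold change of 5.06 ± 1.88 (adjusted p = 0.156) was no longer that of a DEG without any one of DPLBA replicates 1 and 3 and MHLBA replicates 2 and 3 (4.53 to 4.70), and without MHLBA replicate 1 it was 8.42. HAPLN1 had 129, 4.03 and 80.1 RPKM in DPLBA and 12.7, 0.56 and 1.86 RPKM in MHLBA. HAPLN1 missed the threshold at 3.21 ± 1.49 (adjusted p = 0.234) and passed it without MHLBA replicate 1 (6.07), without DPLBA replicate 2 (3.79) and in DESeq2 (3.18). MHLBA replicate 1 was the MH library with the most ACAN, HAPLN1, MATN3 and SOX9. Its TMM factor was 0.612, against 0.918 to 1.23 in the other long bone libraries. This raises its scaled counts, on which the fold changes rest, but not its RPKM values.

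Among the SOX genes of adults, SOX5 had 6.91, 5.41 and 6.24 RPKM in DPLBA and 15.8, 21.6 and 21.9 RPKM in MHLBA. Its SE was the smallest of the 9 genes in this comparison, with a log2 fold change of -1.79 ± 0.24. SOX8 had 8.53, 3.96 and 18.7 RPKM in DPLBA and 0.20, 1.23 and 1.47 RPKM in MHLBA, again with no overlap (3.46 ± 0.72, adjusted p = 0.0536). SOX9 had 15.03, 0.16 and 20.1 RPKM in DPLBA and 6.01, 0.35 and 0.60 RPKM in MHLBA. Each breed thus held libraries with and without SOX9, and the difference was 1.73 ± 1.57 (adjusted p = 0.536), rising to 4.80, that of a DEG, without MHLBA replicate 1. SOX6 had 4.36, 3.38 and 3.06 RPKM in DPLBA and 8.46, 4.38 and 4.55 RPKM in MHLBA (-0.99 ± 0.50, adjusted p = 0.271). SOX6 became a DEG, lower in DPs, without MHLBA replicate 2 (-1.24) or 3 (-1.27), and was -0.14 without MHLBA replicate 1. The 5 genes without overlap were ACAN, COMP, CHAD, SOX5 and SOX8, against 29.9% of all genes tested.

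**Figure D3:**
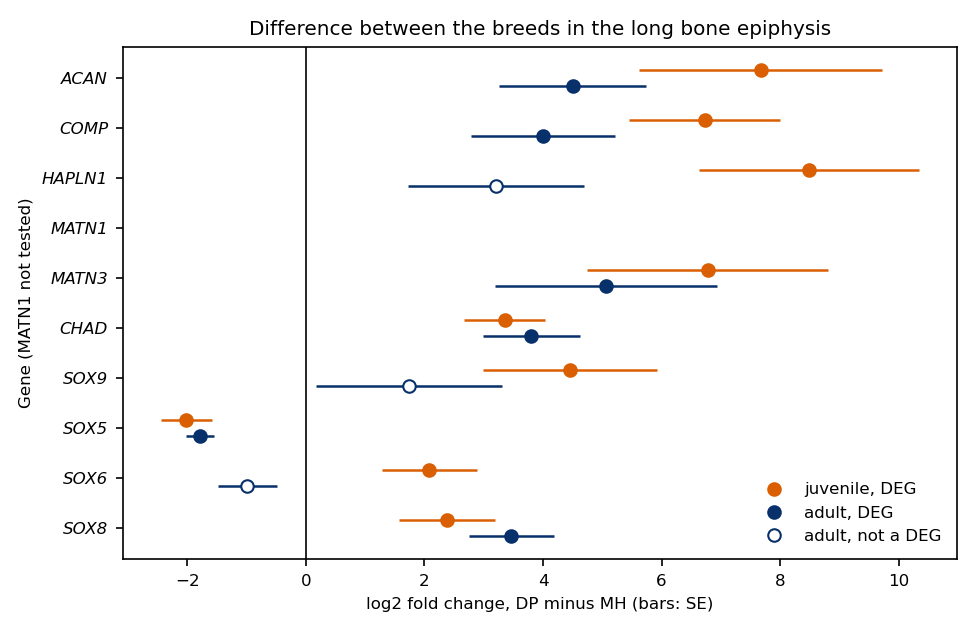
Log2 fold change of DPs over MHs in the long bone with its SE, for juveniles (orange) and adults (blue); filled points are DEGs and open points are not. SOX5 lay below 0 at both stages (-2.02 and -1.79), and ACAN, COMP, MATN3, CHAD and SOX8 above 0 at both.

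Both breed comparisons were accompanied by differences in marker lists of other cells, whose part in the results was not tested. In the juvenile long bone, the adipocyte list summed to 1574 to 3738 CPM in DPLBJ and 6219 to 8082 CPM in MHLBJ, and all 6 of its genes were DEGs that were lower in DPs. The neutrophil list (3 of 3 genes higher) reached 6.83 to 5217 CPM in DPLBJ and 0.290 to 65.0 CPM in MHLBJ. All 4 erythroid genes tested were higher in DPs, with sums of 0.446 to 6719 CPM and 0.434 to 7.59 CPM. Of 10 osteoblast genes 4 were higher (ALPL by 2.64, SP7 by 1.94, BGLAP by 1.94 and COL1A2 by 2.19), with sums of 16346 to 79356 CPM and 12216 to 38729 CPM. Of 5 skeletal muscle genes tested 4 were lower, with sums of 1.75 to 2.69 CPM in DPLBJ and 9.15 to 437 CPM in MHLBJ. The endothelial list summed to 755 to 1255 CPM in DPLBJ and 1909 to 2002 CPM in MHLBJ. For the tendon and fibroblast list the sums were 1479 to 4965 CPM in DPLBJ and 1017 to 1643 CPM in MHLBJ, which overlap. In adults, 5 of 10 osteoblast genes were higher in DPs (41543 to 83924 CPM in DPLBA, 6446 to 30738 CPM in MHLBA) and 3 of 3 neutrophil genes were (696 to 1063 CPM and 0.560 to 51.2 CPM). All 3 skeletal muscle genes tested were lower in adult DPs, and none of the 6 adipocyte genes was a DEG. The adult endothelial sums overlapped (989 to 1423 CPM in DPLBA, 769 to 2736 CPM in MHLBA). So did those of tendon and fibroblasts (2010 to 14512 CPM and 734 to 2404 CPM). No gene of these lists was at 0 reads in all libraries of a long bone group.

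Other genes of cartilage also differed between the juvenile breeds. COL2A1, the main collagen of cartilage, had 0.88, 668 and 1984 RPKM in DPLBJ and 0.30, 1.02 and 0.55 RPKM in MHLBJ, so that DPLBJ replicate 1 lay within the MH range, as in ACAN. The 6 cartilage collagen genes tested were all DEGs with higher levels in DPs, the median log2 fold change being 10.17 (COL11A2 3.89, COL9A3 11.60, COL9A2 10.69 and COL2A1 10.52 on the log2 scale). COL10A1, the collagen of hypertrophic cartilage, did not pass the filter. It had 0, 49.4 and 1218 RPKM in DPLBJ and 0.03 to 0.14 RPKM in MHLBJ. Of 10 other cartilage proteins tested, 6 were higher in DPs, among them FMOD (4.82), LECT1 (6.34), CILP2 (2.11) and SCRG1 (5.55). Of 17 genes that make chondroitin sulfate or hyaluronan, 3 were higher, namely CHST12 (1.24), PAPSS2 (1.92) and CHPF (1.05). Of 8 genes of aggrecan breakdown and its inhibition, 3 proteases were lower, namely ADAMTS1 (-1.56), ADAMTS5 (-1.25) and ADAMTS15 (-1.69).

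In adults, 2 of 7 cartilage collagen genes were DEGs, COL11A2 (2.85) and COL11A1 (3.45), both higher in DPs. COL2A1 had 926, 5.68 and 2489 RPKM in DPLBA and 123, 1.41 and 0.23 RPKM in MHLBA (4.08 ± 2.49, adjusted p = 0.355). COL10A1 had 215, 5.37 and 236 RPKM in DPLBA and 19.8, 0.01 and 0 RPKM in MHLBA (3.82 ± 2.33, adjusted p = 0.355). Of 11 other cartilage proteins tested 5 were higher, and FMOD (3.42, adjusted p = 0.0223) and MATN2 (2.44, adjusted p = 0.0360) passed after adjustment in edgeR's quasi-likelihood test. HAS2, PAPSS2 and CHST12 were higher among 17 synthesis genes. Among the 8 genes of aggrecan breakdown, the protease ADAMTS1 was lower by a log2 fold change of -2.83 ± 0.40 (adjusted p = 0.0249, edgeR's quasi-likelihood test), ADAMTS5 was lower (-2.17) and the collagenase MMP13 was higher (3.0).

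The next question was whether the genes differed between stages within a breed. In DPs, 1 of the 9 genes tested was a DEG, while 3.14% of all 13866 genes were and 1.58% were DEGs higher in juveniles. This was SOX6, which was higher in juveniles by 2.26 ± 0.79 (adjusted p = 0.988, edgeR's quasi-likelihood test) and by 1.11, no longer that of a DEG, without DPLBJ replicate 2. SOX6 also lost its call without any single DPLBA library (2.15 to 2.38). In the same comparison 4 of 6 erythroid genes were higher in juveniles, with sums of 0.446 to 6719 CPM in DPLBJ and 0.0569 to 155 CPM in DPLBA, and the part of these cells in the SOX6 difference was not tested. The 5 matrix genes had log2 fold changes between -1.47 (COMP) and 0.37 (HAPLN1), with SEs of 0.72 to 1.85. Without DPLBJ replicate 3, COMP (-3.16) and SOX8 (-2.19) became DEGs that were lower in juveniles. Without DPLBJ replicates 2 and 3, SOX6 was -0.38 and no DEG, and 7 other genes were called lower in DPLBJ replicate 1, ACAN by -9.30, as were 7.41% of all genes (10.9% in either direction). This single library was assumed to vary like DPLBA, and none of the 7 passed after adjustment (adjusted p = 0.0575 to 0.413, edgeR's quasi-likelihood test).

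In MHs, 4 of the 9 genes were DEGs, all lower in juveniles, against 2.91% of all 13899 genes (2.14% lower). ACAN had 61, 14 and 81 reads in MHLBJ and 1627, 244 and 253 in MHLBA, which is a log2 fold change of -4.26 ± 1.23. COMP had 43, 118 and 145 reads in MHLBJ and 1902, 211 and 1444 in MHLBA (-4.18 ± 1.01). HAPLN1 had 8, 8 and 11 reads in MHLBJ and 449, 29 and 44 in MHLBA (-4.89 ± 1.39). In these 3 genes every adult library was above every juvenile library. The groups did not overlap, in either direction, in 8.76% of all genes tested. Without MHLBA replicate 1 the changes were -2.18 for ACAN and -2.08 for HAPLN1, and both were still DEGs.

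The fourth gene, SOX9, had 9, 13 and 21 reads in MHLBJ and 271, 23 and 18 in MHLBA. Its change of -3.51 ± 1.31 rested on MHLBA replicate 1, without which it was -0.48 and no longer that of a DEG. SOX9 also lost its call when any single MHLBJ library was left out (-3.76 to -3.35). MATN3, not a DEG at -2.37, turned to 0.93 without MHLBA replicate 1 and became a DEG without MHLBA replicate 2 (-2.92), and CHAD became a DEG without MHLBA replicate 3 (-1.22). Of the other cartilage genes COL2A1 (-6.78), COL9A2 (-6.00), FMOD (-2.28) and the protease MMP3 (-4.68) were lower in juvenile MHs. All adjusted p-values of the 9 genes were 0.998 by edgeR's quasi-likelihood test.

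The difference between the breed effects of juveniles and adults was then tested as an interaction. Of the 9 genes, HAPLN1 (5.25 ± 2.40) and SOX6 (3.01 ± 1.02) passed the DEG rule, as did 4.17% of all 14735 genes, 2.54% with a positive difference, and both had an adjusted p of 0.971 by edgeR's quasi-likelihood test. HAPLN1 no longer passed without DPLBJ replicate 3 (2.42) or MHLBA replicate 1 (2.45), nor without any one of the 3 DPLBA and 3 MHLBJ libraries (4.69 to 5.99). SOX6 no longer passed without DPLBJ replicate 2 (1.83). Without DPLBJ replicates 2 and 3 HAPLN1 was -0.57 and SOX6 0.41, and neither passed. In that setting SOX5 (-1.42) and SOX8 (-2.66) did, as 7.93% of all genes. For SOX5 the breed effect differed between stages by -0.27 ± 0.49 (adjusted p = 0.989) and for CHAD by -0.49 ± 1.06 (adjusted p = 0.991). Leaving out single libraries moved the CHAD value between -1.09 (without MHLBA replicate 2) and -0.012 (without MHLBA replicate 3), and the SOX5 value to -0.64 without DPLBJ replicate 2 and to 0.086 without DPLBJ replicate 1.

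In the pituitary, most matrix genes were scarce and the SOX genes were not. MATN1 had its highest value there, 8.69 RPKM in MHPJ replicate 2, against a pituitary median of 0.185 RPKM. ACAN reached at most 1.00 RPKM, HAPLN1 3.03, COMP 3.88, MATN3 2.06 and CHAD 0.46 RPKM. SOX8 ranged from 0.05 to 39.2 RPKM, SOX9 from 0.55 to 12.2 RPKM and SOX6 from 0.58 to 6.21 RPKM, whereas SOX5 stayed within 3.43 to 6.93 RPKM. SOX5 was thus the most even of the 4 SOX genes in this tissue.

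Between juvenile DPs and MHs, 3 of the 7 genes tested in the pituitary were DEGs, all lower in DPs, among 20.3% of all 14603 genes and 12.7% that were lower. SOX6 had 0.85, 1.72 and 0.71 RPKM in DPPJ and 4.82, 6.21 and 6.17 RPKM in MHPJ. SOX6 was lower in DPs by -2.60 ± 0.41 on the log2 scale (adjusted p = 0.0231, edgeR's quasi-likelihood test), and 8.73% of all genes passed after adjustment. SOX8 had 0.12, 7.43 and 1.39 RPKM in DPPJ and 34.2, 14.1 and 33.3 RPKM in MHPJ. Its change of -3.38 ± 1.25 (adjusted p = 0.128) was no longer that of a DEG without DPPJ replicate 3 (-3.02) or MHPJ replicate 1 (-3.30) or 3 (-3.17), and it was -5.39 without DPPJ replicate 2. HAPLN1 had 3, 8 and 6 reads in DPPJ and 68, 7 and 99 reads in MHPJ (-3.78 ± 0.92, adjusted p = 0.0535). SOX5 was lower by -0.72 ± 0.22 (adjusted p = 0.0887), less than the fold change that the rule asks for. The groups of HAPLN1, SOX5, SOX6 and SOX8 did not overlap in CPM, against 39.7% of all genes. For HAPLN1 the reads before scaling did overlap (8 in DPPJ replicate 2, 7 in MHPJ replicate 2). HAPLN1 also passed the filter on low counts only through MHPJ, where it was higher.

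These differences stood beside the missing hormone RNA of MHPJ. The oligodendrocyte list (6 genes) summed to 100 to 1893 CPM in DPPJ and 4085 to 6350 CPM in MHPJ, with 3 of 6 genes lower in DPs. The astrocyte and pituicyte list (5 genes) summed to 84.7 to 3461 CPM in DPPJ and 3608 to 5286 CPM in MHPJ, with 1 of 5 genes, SLC1A2 (-4.88), lower in DPs. The hormone list summed to 30994 to 36576 CPM in DPPJ, with 5 of 5 genes higher in DPs. SOX8 was highest in the libraries with high oligodendrocyte lists, which were the 3 MHPJ libraries, DPPA replicate 1 (23.1 RPKM, list at 3562 CPM) and MHPA replicate 1 (39.2 RPKM, list at 16139 CPM). In the other adult libraries SOX8 was at 0.05 to 1.49 RPKM with lists at 58.1 to 161 CPM. The part of these cells in the SOX8 and SOX6 differences was not tested.

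**Figure D4:**
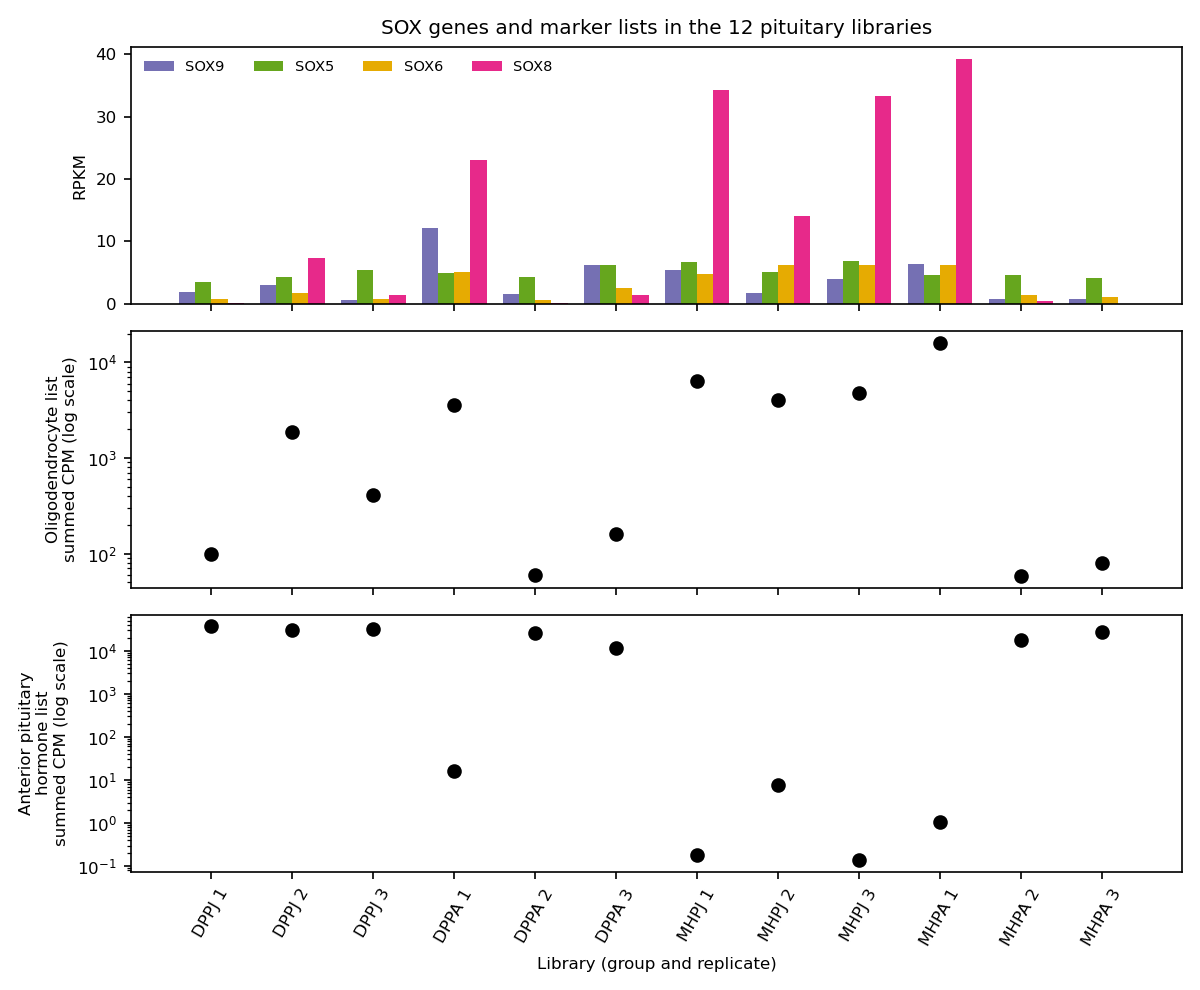
Top, RPKM of the 4 SOX genes in the 12 pituitary libraries; middle and bottom, summed CPM of the oligodendrocyte and anterior hormone lists on log axes. SOX8 (pink) exceeded 14 RPKM in 5 libraries, and the hormone list of these 5 was at most 15.8 CPM.

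None of the 7 genes tested was a DEG between the breeds in the adult pituitary by edgeR's quasi-likelihood test, by DESeq2 or by limma, and none had P under 0.05 before adjustment, while 2.93% of all 14376 genes were DEGs. With the replicate number as a block, SOX9 was a DEG (1.79), against 1.35 ± 1.17 (adjusted p = 0.745, edgeR's quasi-likelihood test) without the block. The breeds are different animals, so this block matches libraries by number only. Without replicate 1 of both groups, the libraries with little hormone RNA, SOX9 (2.51) and COMP (-2.22) were DEGs, as were 6.02% of all genes, a setting chosen after seeing the data. SOX9 was also a DEG without MHPA replicate 1 alone (3.39), but its value was 0.47 without DPPA replicate 1, and 0.88 and 0.89 when MHPA replicate 2 or 3 was left out. SOX9 had 12.2, 1.66 and 6.29 RPKM in DPPA and 6.34, 0.76 and 0.78 RPKM in MHPA. In both groups replicate 1 was the highest, as it was for SOX6 (5.05 and 6.20 RPKM) and SOX8.

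Between the stages of DPs, none of the 5 genes tested in the pituitary was a DEG or had P under 0.05 before adjustment by edgeR's quasi-likelihood test, against 3.56% DEGs among all 14533 genes. The log2 fold change of SOX9 was -2.0 ± 0.87 (adjusted p = 0.438) and that of SOX6 -1.47 ± 0.78 (adjusted p = 0.470). DESeq2 made DEGs of both, lower in juveniles, as did edgeR without DPPA replicate 2 (-2.46 and -1.95), and limma made none. Without DPPA replicate 1, which holds little hormone RNA, the changes were -1.12 and -0.53. In MHs, ACAN and HAPLN1 were DEGs among 8 genes tested and 7.74% of all 14430 genes (4.5% higher), both higher in juveniles. ACAN had 152, 50 and 8 reads in MHPJ and 2, 12 and 4 in MHPA (3.62 ± 1.15, adjusted p = 0.389). HAPLN1 had 68, 7 and 99 reads in MHPJ and 8, 17 and 6 in MHPA (log2 fold change 2.5 ± 0.91, adjusted p = 0.408). Both had few reads and overlapped between stages, while SOX5 did not overlap (0.67 ± 0.24), as 17.6% of all genes. The call of ACAN was lost without MHPA replicate 1 or 3 or MHPJ replicate 1, and that of HAPLN1 without any library but MHPJ replicate 2. Without MHPA replicate 1, SOX8 (7.02), SOX6 (2.53) and SOX9 (2.56) became DEGs that were higher in juvenile MHs. Their changes over all 6 libraries were 1.00, 1.05 and 0.52. All 3 MHPJ libraries also had little hormone RNA, so that this setting set them against MHPA libraries with hormone lists of 17778 and 27466 CPM. The oligodendrocyte lists were then 4085 to 6350 CPM in MHPJ and 58.1 and 80.5 CPM in MHPA, and those of astrocytes and pituicytes 3608 to 5286 CPM and 38.8 and 40.3 CPM. The part of these cells was not tested.

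Lastly, the genes were compared with ACAN across the 12 long bone libraries, on log2 CPM, with permutation tests of 100000 permutations. These points share the breed difference described above, so the relations were also taken with the breed means removed. In this family of 8 relations HAPLN1 (Pearson's r = 0.939, P = 4e-05, adjusted p = 0.00016; Spearman's rho = 0.923, P = 7e-05), COMP (r = 0.932, P = 6e-05, adjusted p = 0.00016; rho = 0.930, P = 5e-05) and MATN3 (r = 0.906, P = 4e-05, adjusted p = 0.00016; rho = 0.881, P = 0.00026) followed ACAN most closely by the permutation test. SOX9 followed with r = 0.811 (permutation P = 0.00257, adjusted p = 0.00514) and rho = 0.755 (P = 0.00614). After removal of the breed means, r was 0.886 for HAPLN1, 0.876 for COMP, 0.839 for MATN3 and 0.797 for SOX9. Without the 2 libraries farthest from the ACAN median, MHLBJ replicate 2 and DPLBA replicate 3, r was 0.923, 0.907, 0.878 and 0.762. The stage means were not removed, so these relations share the stage differences described above, which in MHs were those of ACAN, COMP, HAPLN1 and SOX9.

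Within DPs (6 libraries) the exact permutation test gave r = 0.861 for HAPLN1 (P = 0.00833), 0.943 for COMP (P = 0.00139), 0.867 for MATN3 (P = 0.00833) and 0.766 for SOX9 (P = 0.0194). By ranks the same test gave rho = 0.771 for both HAPLN1 and MATN3 (P = 0.103). It gave rho = 1.0 for COMP (P = 0.00278) and 0.886 for SOX9 (P = 0.0333). In ACAN, DPLBJ replicate 1 (0.22 RPKM) lay far below the other DP libraries (at least 30.1 RPKM). Within MHs the same exact test gave 0.942 for HAPLN1 (P = 0.00139), 0.836 for COMP (P = 0.0139), 0.786 for MATN3 (P = 0.075, adjusted p = 0.12, rho = 0.486) and 0.871 for SOX9 (P = 0.00694). By ranks it gave rho = 1.0 for HAPLN1 (P = 0.00278) and 0.829 for both COMP and SOX9 (P = 0.0583). In ACAN, MHLBA replicate 1 (10.4 RPKM) lay far above the other MH libraries (at most 2.42 RPKM). The same library was far above the others in HAPLN1 (12.7 against at most 1.86 RPKM) and SOX9 (6.01 against at most 0.60 RPKM). The r within MHs were not taken without it.

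The relations of CHAD, SOX8, SOX5 and SOX6 with ACAN were lower over all 12 libraries. CHAD had r = 0.618 with ACAN (permutation P = 0.0354, adjusted p = 0.0472; rho = 0.573, P = 0.0542), but 0.117 with the breed means removed (P = 0.727), 0.533 without the 2 farthest libraries (P = 0.111), 0.151 within DPs and 0.056 within MHs. SOX8 had r = 0.691 (permutation P = 0.0139, adjusted p = 0.0222; rho = 0.671, P = 0.0206), 0.345 with the breed means removed (P = 0.394) and 0.651 without the 2 farthest libraries (adjusted p = 0.0697). Within DPs the exact permutation test gave r = 0.786 for SOX8 (P = 0.0194, adjusted p = 0.0311; rho = 0.886), the same P as for SOX9, and within MHs r = -0.834 (P = 0.0528, adjusted p = 0.106). SOX5 had r = -0.469 over all libraries (permutation P = 0.121; rho = -0.503, P = 0.0994) and 0.532 with the breed means removed (P = 0.172), and by the exact permutation test 0.830 within DPs (P = 0.111; rho = 0.429) and -0.448 within MHs (P = 0.383). SOX6 had r = 0.383 (permutation P = 0.223; rho = 0.133, P = 0.684) and 0.392 with the breed means removed (P = 0.272). By the exact permutation test SOX6 had r = 0.275 within DPs (P = 0.586) and 0.785 within MHs (P = 0.108, rho = 0.029). The relations of CHAD and SOX8 with ACAN over all 12 libraries therefore did not hold once the breed means were removed.

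**Figure D5:**
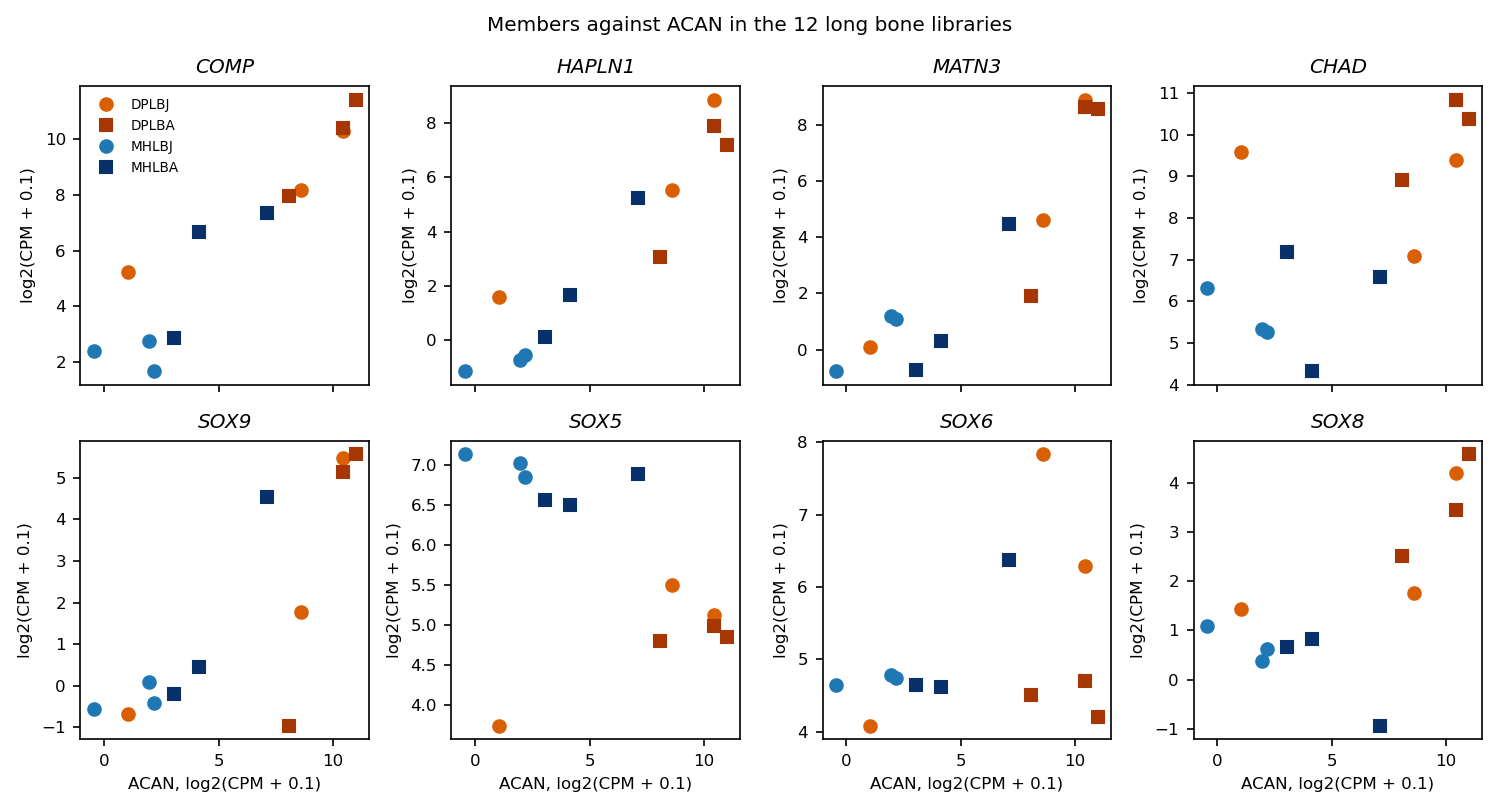
Each panel plots log2(CPM + 0.1) of 1 gene against that of ACAN in the 12 long bone libraries (orange DP, blue MH; circles juvenile, squares adult). COMP, HAPLN1, MATN3 and SOX9 had r of 0.811 to 0.939 with ACAN over all 12 libraries. DPLBJ replicate 1 (light orange, upper left of the CHAD panel) combines low ACAN with high CHAD.

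Among 12991 genes with a symbol, those most like the mean of the 5 matrix genes that passed the filter over the 12 long bone libraries were THBS3 (r = 0.962), F13A1 (0.958), FMOD (0.954), CRISPLD1 (0.953), COL9A2 (0.947), CAPN6 (0.941), PRELP (0.940), COL10A1 (0.936), LECT1 (0.935) and TMEM45B (0.934). Those most like SOX9 were WISP3 (0.980), COLGALT2 (0.964), RIMBP2 (0.951), KCNK5 (0.945) and CALB2 (0.945). THBS3 is a thrombospondin of the same family as COMP, and FMOD and PRELP are small leucine-rich proteins of the matrix, as CHAD is.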

How the data were processed

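RNA from a portion of ground pituitary or long bone epiphysis tissue was sequenced after ribosomal RNA depletion as directional libraries. Per the labels and the study's methods, the authors trimmed the reads and mapped them to the horse genome (EquCab build); the labels name TopHat2 and the methods another tool, so the tool behind the counts is uncertain. The authors deposited whole read counts per gene, not normalized, and RPKM values. From the counts, DEGs were called with edgeR 4.0.16 (quasi-likelihood test, TMM, filterByExpr with a minimum count of 10) in R 4.3.3 on the 6 libraries of each pair of groups, on all 24 for the tissues and on the 12 long bone libraries for the interaction. A DEG had P under 0.05 before adjustment and over a 2-fold change, as in the study. Adjusted p-values (Benjamini-Hochberg) were taken over all genes tested. Overlap between groups was judged on CPM with TMM scaling. The scripts were tested on simulated data.

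The genes and marker lists were chosen with earlier results of these data known. All 10 genes were named in each comparison; of each list the up to 4 called genes with the lowest P were named, with COL2A1 and COL10A1 always, and likeness was ranked by r. The remaining called genes, and the non-members named for a library, were chosen after their values were seen. Whether samples of 1 replicate number go together was checked by the correlation of their deviations from the group means, which was over 0.1 in every pair only for the breeds in the adult pituitary (0.621, 0.486 and 0.33). There replicate 1 was the library with little hormone RNA in both groups, and no label pairs the animals. Alternatives were DESeq2 1.42.0, limma 3.58.1 on log2(RPKM + 1) and log2(RPKM + 0.1), other size factors, no TMM, no filter on low counts, the replicate block, all 12 libraries of a tissue, and each library left out in turn. Libraries that stood apart by their erythroid or hormone lists were also left out together, chosen after seeing the data; MHPJ then had none left, and the tissue contrast used the mean of the other 3 pituitary groups. The p-values measure the spread between 3 animals a group. The genome was not used here, so no sequence or position is given.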

Additional observations from a re-analysis of the deposited data

Results flagged for a closer look

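For 2 genes the difference in the long bone breed effect between juveniles and adults passed the DEG rule before adjustment. It was flagged as a difference between groups. For HAPLN1 the juvenile breed effect exceeded the adult one by 5.25 ± 2.40 on the log2 scale (adjusted p = 0.971, edgeR's quasi-likelihood test). HAPLN1 was higher in DPs by 8.48 in juveniles and by 3.21 in adults. The juvenile value rests on few HAPLN1 reads in MHLBJ. For SOX6 the difference was 3.01 ± 1.02 (adjusted p = 0.971, edgeR's quasi-likelihood test). SOX6 was higher in DPs by 2.08 in juveniles and lower by -0.99 in adults, where it did not pass the threshold. Of all 14735 genes tested, 4.17% passed the same rule. Neither call was stable. That of HAPLN1 changed when any of 8 single libraries was left out, and that of SOX6 without DPLBJ replicate 2 (1.83). Without DPLBJ replicates 2 and 3 the differences were -0.57 for HAPLN1 and 0.41 for SOX6.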

How the results depend on the processing

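Over all settings other than those that leave out 1 library, 70 counts were within 1.5 times the reported count and 26 were not. With an adjusted p under 0.05 in place of P, 0 genes were called in the juvenile long bone, 1 in the adult long bone, 0 between stages in the DP and MH long bone, 1 in the juvenile pituitary, 0 between stages in the MH pituitary and 0 in the interaction. With limma on log2(RPKM + 1) and on log2(RPKM + 0.1), 5 genes were called in the juvenile long bone, and 0 between stages in the DP long bone, 0 between stages in the MH pituitary and 0 in the interaction. Without the filter on low counts, 2 were called between stages in the DP long bone, 6 in the juvenile pituitary and 1 between stages in the DP pituitary. DESeq2 called 2 between stages in the DP pituitary and gave no P for 1 gene of the adult and 2 of the MH stage comparison in the long bone. Without TMM 1 gene passed in the interaction, where the median of all genes moved from 0.065 to -0.17. With the replicate block, 4 genes were called in the juvenile long bone, 1 in the adult pituitary and 0 between stages in the MH pituitary. Between groups of 1 tissue the libraries share only a number. Between the tissues, which share animals, the deviations of same-numbered libraries correlated by -0.132 to 0.256. When each library was left out in turn, the count ran from 0 to 3 between stages in the DP long bone, from 0 to 1 in the adult pituitary, from 0 to 2 and from 0 to 3 between stages in the DP and MH pituitary, and from 1 to 3 in the interaction.

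Among the settings planned, signs turned only in values that were not DEGs. Between stages in the DP long bone, HAPLN1 was -0.62 and SOX5 -0.087 on log2(RPKM + 1), -0.76 and -0.13 on log2(RPKM + 0.1), and SOX5 -0.083 with the replicate block. Between the breeds in the adult pituitary, SOX8 was 0.074 and 0.57 with limma on the same scales and 0.35 with the replicate block, where SOX6 was 0.013. Between the tissues SOX8 was 0.032 with the replicate block. In the interaction, limma on log2(RPKM + 1) gave -0.74 for ACAN, -1.02 for MATN3 and -0.036 for SOX9, and on log2(RPKM + 0.1) it gave -0.090 for ACAN and -1.19 for MATN3. The r of SOX5 with ACAN was 0.532 with the breed means removed. Leaving out single libraries moved HAPLN1 between -2.43 and 1.09 and SOX5 between -0.27 and 0.44 for the DP long bone stages, and MATN3 between -2.92 and 0.93, SOX6 between -1.05 and 0.062 and SOX8 between -0.041 and 0.64 for the MH long bone stages. In the pituitary the ranges were -1.29 to 0.042 for MATN3 in juveniles, -1.89 to 3.19 for COMP, -0.54 to 1.23 for HAPLN1, -1.01 to 1.41 for SOX6 and -4.18 to 5.35 for SOX8 in adults, -3.64 to 1.79 for SOX8 between DP stages and -0.24 to 1.13 for MATN3 between MH stages. Between the tissues SOX9 ran from -0.86 to 0.41 and MATN1 from -1.56 to 0.23. In the interaction SOX5 ran from -0.64 to 0.086, MATN3 from -2.06 to 2.27 and SOX9 from -0.37 to 3.34. The cause of these changes was not tested.

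Chosen after seeing the data, and with the cause not tested, DPLBJ replicates 2 and 3 (high erythroid lists) or the pituitary libraries with little hormone RNA were left out together. Without the former, 4 genes were called between juvenile breeds, where ACAN (-0.53), MATN3 (-0.62), SOX9 (-0.43) and SOX6 (-0.58) turned, and 7 between DP stages, where HAPLN1 (-5.47), SOX5 (-1.12) and SOX6 (-0.38) turned. In the interaction ACAN (-5.04), COMP (-1.03), HAPLN1 (-0.57), MATN3 (-5.70), CHAD (0.15) and SOX9 (-2.18) turned. Without the latter, 2 genes were called between adult breeds, where COMP (-2.22), HAPLN1 (-0.62), SOX6 (0.47) and SOX8 (1.86) turned, and between the tissues SOX9 (0.98) and SOX8 (2.01) turned.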

Other observations

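The make-up of the matrix set differed between libraries. As a share of the summed RPKM of the 6 matrix genes, CHAD made up 97.4% in DPLBJ replicate 1 and 31.1 to 73.8% in the other 5 DP long bone libraries. In the MH long bone CHAD made up 87.8 to 96.2% in MHLBJ and 40.4, 96.1 and 27.2% in the 3 MHLBA replicates.

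Of the summed RPKM of the 4 SOX genes, SOX5 made up 76.8 to 83.6% in 5 MH long bone libraries and 51.9% in MHLBA replicate 1, which was the MH library with the most SOX9. SOX5 made up 13.0 to 41.9% in the 6 DP libraries. Across the 12 long bone libraries SOX5 and CHAD had r = -0.836 on log2 CPM, and SOX9 and MATN3 had r = 0.936. These values are descriptions over libraries that share the breed difference.

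MATN1, the only gene of the 10 that was near 0 in most libraries of both tissues, stood out in MHPJ replicate 2. That library, labelled pituitary, held 209 MATN1 reads, 2220 COL2A1 reads and a skeletal muscle list of 1101 CPM, whereas the other 2 MHPJ libraries had 39 and 48 COL2A1 reads and muscle lists of 7.93 and 10.3 CPM.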
